A study of Mus musculus with 27 samples.

Results

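The Notch pathway genes described here are 3 receptors (Notch1, Notch2, Notch3), 3 ligands (Dll1, Dll3, Jag1) and 3 target genes (Hes1, Hes5, Hey1). They were chosen by gene name and were found by matching Ensembl identifiers to GENCODE mouse symbols. All 9 were present among the 37332 genes of the read-count table and the 53379 genes of the TPM table, and all 9 were among the 18226 genes tested. The levels of these genes were followed in polyadenylated RNA of chromatin, nucleoplasm and cytoplasm from 3 mouse cell types.

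Notch receptors are membrane proteins that are cut after they bind a ligand on a neighbouring cell. The freed intracellular part enters the nucleus, joins the DNA-binding protein RBPJ and a Mastermind coactivator, and switches on genes of the HES and HEY families. These repressors hold back proneural factors, and in the developing nervous system the pathway is known for keeping neighbouring progenitors from all becoming neurons at the same time.

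The E14 line of mouse embryonic stem cells was kept with LIF (mESC). Neural progenitors (mNPC) were a line the submitters had made themselves and kept in B27, EGF and FGF. Cortical neurons (mCtx) were primary cells after 5 days in culture. Stem cells and progenitors are thus represented by a single line each. No cell carries a transgene or a treatment in the labels. Each cell type was separated into chromatin-associated RNA (Chr), soluble nucleoplasmic RNA (Nuc) and cytoplasmic RNA (Cyto), with 3 biological replicates of each of the 9 groups and 27 libraries in all.

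Library totals ran from 10622897 to 24537526 counts. The mESC libraries numbered 1 stood apart from the other 2 replicates in every fraction, with a chi-square per gene of 37.3 to 74.8 against them, where libraries 2 and 3 differed by 12.5 to 19.8. In mNPC nucleoplasm, library 3 stood apart, at 38.1 and 24.7 against libraries 1 and 2, which differed by 8.84. Markers followed the labels: in cytoplasm the summed level of 8 pluripotency markers was 5251 to 6015 CPM (read counts scaled to library size) in mESC, against 13.3 to 16.2 CPM in mNPC and 4.30 to 5.24 CPM in mCtx. The 8 neural progenitor markers summed to 169 to 196 CPM in mESC, 7135 to 7603 CPM in mNPC and 1565 to 1996 CPM in mCtx, and the 10 neuron markers to 502.5 to 532, 780.2 to 938 and 10880 to 11760 CPM. The progenitor line also carried glial markers: 7 astrocyte markers summed to 1189 to 1524 CPM in mNPC, against 139 to 144 CPM in mESC and 314 to 343 CPM in mCtx. The 6 oligodendrocyte lineage markers summed to 116 to 184 CPM in mNPC, 5.24 to 12.2 CPM in mESC and 16.4 to 18.6 CPM in mCtx, with Mog at 0 in mNPC cytoplasm. Markers of endothelium (7 genes), of mural cells and fibroblasts (8 genes) and of primitive endoderm and mesoderm (7 genes) summed to at most 0.990, 1.79 and 0.820 CPM in mNPC cytoplasm, with 3, 3 and 5 of them at 0. The 6 microglia markers summed to 28.4 to 32.6 CPM in mNPC cytoplasm with C1qa at 0. Sums were 58.3 to 106 CPM in mESC, with P2ry12 and C1qa at 0, and 51.8 to 57.6 CPM in mCtx, with none at 0. These sums largely follow Cx3cr1, which averaged 42.9 CPM over all 27 libraries beside 0.809 CPM for C1qa, the next highest tested marker. By contrast, the median log2 fold change of the 5 tested microglia markers from mESC to mCtx in cytoplasm was 3.44. The 6 inhibitory neuron markers summed to 6.52 to 11.1 CPM in mESC, 2.75 to 3.23 CPM in mNPC and 445 to 475 CPM in mCtx cytoplasm.

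In mm10 coordinates, Notch1 (ENSMUSG00000026923) lies on the minus strand of chromosome 2 from 26457903 to 26516663. Notch2 (ENSMUSG00000027878) lies on the plus strand of chromosome 3 from 98013538 to 98150367, and Notch3 (ENSMUSG00000038146) on the minus strand of chromosome 17 from 32120820 to 32166880. The receptor genes have 34, 34 and 33 exons in the transcripts with most exons. Of the ligands, Dll1 (ENSMUSG00000014773) is on the minus strand of chromosome 17 from 15367354 to 15376872. Dll3 (ENSMUSG00000003436) is on the minus strand of chromosome 7 from 28293553 to 28302238, and Jag1 (ENSMUSG00000027276) on the minus strand of chromosome 2 from 137081456 to 137116644. Hes1 (ENSMUSG00000022528) is on the plus strand of chromosome 16 from 30064384 to 30067796, Hes5 (ENSMUSG00000048001) on the plus strand of chromosome 4 from 154960923 to 154962371, and Hey1 (ENSMUSG00000040289) on the minus strand of chromosome 3 from 8663362 to 8667039. The target genes are short, with exons covering 94.1% of the counted region of Hes5, 88.8% of Hey1 and 59.7% of Hes1. For the receptors this share was 24.2% in Notch1, 7.88% in Notch2 and 17.6% in Notch3, so most of the region in which their reads were counted is intronic. For the ligands it was 44.3% in Dll1 and 32.8% in Dll3, between receptors and targets, and 16.6% in Jag1, within the range of the receptors. Exons were taken from GENCODE M21, in which Notch2, Notch3 and Hey1 have other spans than the counted ones. The shares of these genes are therefore approximate. Genes on the opposite strand overlap Notch1 (0610009E02Rik and Gm13568) and Hes5 (Gm20421), with 1884, 280 and 40 counts over all libraries beside 147234 for Notch1 and 43723 for Hes5.

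Promoters of 7 of the 9 members were found among RefSeq promoters of build GRCm38.p6. They are shown for the target that differed most between cell types (Hes5), for a ligand that differed in the same direction (Dll3) and for the ligand that did not (Jag1). Each line gives the 250 bases before the RefSeq start site, 5′ to 3′ on the strand of the gene, with capitals marking GTGGGAA or its reverse complement TTCCCAC, letters of the kind RBPJ is known to bind. The Hes5 stretch is chr4:154960673-154960922 on the plus strand, that of Dll3 is chr7:28301786-28302035 on the minus strand, and that of Jag1 is chr2:137116521-137116770 on the minus strand.
Hes5: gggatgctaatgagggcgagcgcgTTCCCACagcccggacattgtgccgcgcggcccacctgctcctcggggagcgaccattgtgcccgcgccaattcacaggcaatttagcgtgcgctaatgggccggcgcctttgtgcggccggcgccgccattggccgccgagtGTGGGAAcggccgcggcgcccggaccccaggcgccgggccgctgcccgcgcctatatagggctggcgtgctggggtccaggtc
Dll3: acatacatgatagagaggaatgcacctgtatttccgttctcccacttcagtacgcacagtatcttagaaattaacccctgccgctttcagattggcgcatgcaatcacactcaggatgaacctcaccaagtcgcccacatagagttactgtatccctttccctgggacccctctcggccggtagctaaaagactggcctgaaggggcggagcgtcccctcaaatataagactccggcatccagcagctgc
Jag1: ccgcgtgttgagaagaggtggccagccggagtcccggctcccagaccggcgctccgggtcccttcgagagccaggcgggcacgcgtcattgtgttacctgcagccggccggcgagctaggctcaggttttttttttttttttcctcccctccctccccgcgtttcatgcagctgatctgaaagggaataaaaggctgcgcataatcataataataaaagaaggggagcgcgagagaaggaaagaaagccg

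The search covered both strands of 300 bases, from 250 before to 50 after each start site. Hes5 held TTCCCAC 226 bases and GTGGGAA 83 bases before its start site, in opposite directions. None of the other 6 members with a promoter (Notch1, Notch2, Notch3, Dll1, Dll3 and Jag1) held these letters in this window, and Hes1 and Hey1 were not searched. Of 32851 promoters in the table, 6.38% held at least 1 match and 0.256% held at least 2. Among 42 other pathway genes with a promoter, 6 held a match, namely Aph1a, Hes7, Hey2, Lfng, Psen2 and Spen. The letters are a description of the sequence and show no binding.

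The first comparison asked how the pathway differed between stem cells, progenitors and neurons within the same fraction. Most members were highest in mNPC. Called here means an adjusted p under 0.05 in the edgeR quasi-likelihood test and a log2 fold change of at least 1 in size. From mESC to mNPC, 8 of 9 members were called higher in chromatin, 7 in nucleoplasm and 7 in cytoplasm, while 25.3%, 24.5% and 29.8% of all tested genes were called higher. No member was called lower or was lower at an unadjusted p under 0.05, and DESeq2 called none lower, against 31.9%, 32.8% and 29.6% of all genes in edgeR. The median log2 fold change of the members was 3.91, 4.10 and 4.0 in turn, against -0.14, -0.25 and -0.01 over all genes. From mNPC to mCtx, 8 members in chromatin, all 9 in nucleoplasm and 7 in cytoplasm were called lower, where 21.4%, 22.1% and 20% of all tested genes were. Jag1 in cytoplasm was the only member called higher in that step, against 24.4% of all genes there. In chromatin and nucleoplasm, where 23.5% and 24.6% of all genes were higher, no member was called higher by edgeR or DESeq2 or was higher at an unadjusted p under 0.05. In these bulk samples fewer cells of a type and less RNA per cell cannot be told apart.

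**Figure D1:**
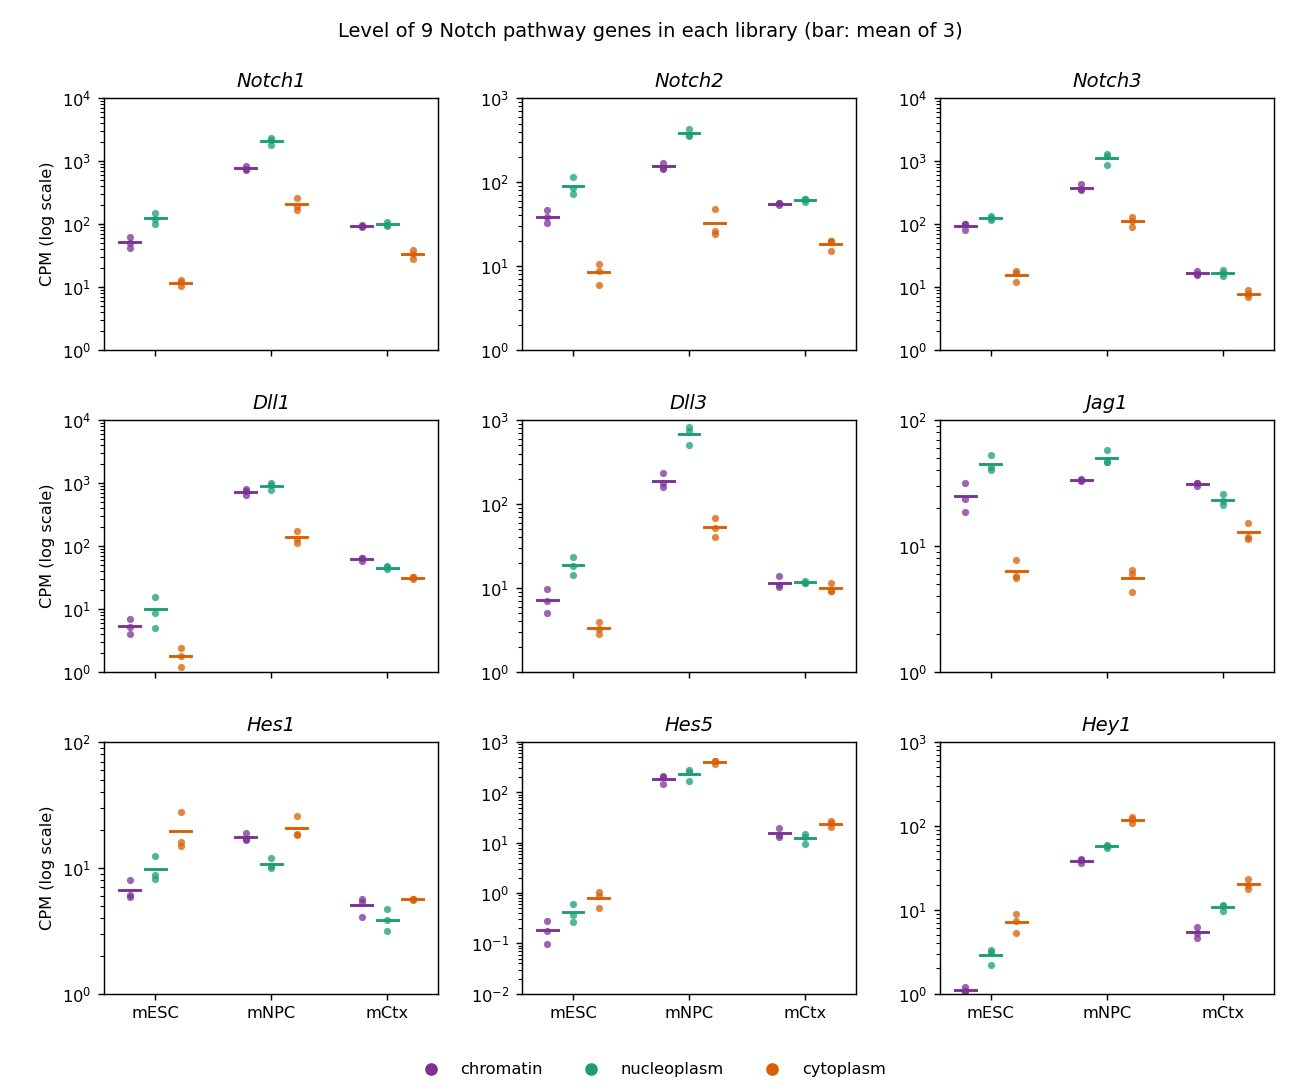
Level of each of the 9 genes in CPM (log axis) in every library, by fraction and cell type; points are libraries and bars are means of 3. Hes5 lies between 0.0974 and 1.048 CPM in all 9 mESC libraries and between 144 and 431 CPM in all 9 mNPC libraries.

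Of the receptors, Notch1, a receptor long studied in neural progenitors, was at 12.01, 12.8 and 10.4 CPM in the cytoplasm of the 3 mESC replicates and at 263, 166 and 191 CPM in mNPC. In mCtx it was at 28.1, 33.9 and 38.5 CPM. The groups did not overlap, and neurons lay between stem cells and progenitors. Notch1 was higher by 4.14 ± 0.20 (log2 fold change ± SE) in mNPC than in mESC (adjusted p = 2.95e-16) and lower by 2.62 in mCtx than in mNPC, a log2 fold change of -2.62 ± 0.18 (adjusted p = 9.94e-13). In nucleoplasm it stood at 2207, 2298 and 1822 CPM in mNPC, against 147, 122 and 98.8 CPM in mESC and 93.5, 96.0 and 109 CPM in mCtx. In nucleoplasm mCtx and mESC overlapped, with a log2 fold change of -0.31 ± 0.17 and a 95% interval of -0.66 to 0.05.

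Notch2, a second receptor of the same design, differed less. Its cytoplasmic libraries were at 10.6, 8.75 and 5.94 CPM in mESC, 47.6, 26.0 and 24.3 CPM in mNPC and 15.2, 19.8 and 19.6 CPM in mCtx. The mNPC libraries were all above those of both other cell types, with mNPC library 1 far above the other 2. The log2 fold change was 1.97 ± 0.23 from mESC to mNPC (adjusted p = 1.53e-08) and -0.85 ± 0.22 from mNPC to mCtx, which was not called (adjusted p = 0.00118, size under 1). In nucleoplasm the step from mNPC to mCtx was -2.64 ± 0.22 and in chromatin -1.48 ± 0.21, both called. Without mNPC cytoplasm library 1 the cytoplasmic step was -0.46, and without mNPC cytoplasm library 3 it was called, at -1.01.

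Notch3, best known from vascular mural cells and also present in progenitors, had the largest fall of the 3 receptors from progenitors to neurons in each fraction. In cytoplasm it was at 11.8, 18.2 and 16.8 CPM in mESC, 131, 90.4 and 113 CPM in mNPC and 6.96, 8.81 and 7.71 CPM in mCtx. All mCtx libraries were below all mESC libraries in each of the 3 fractions. The log2 fold change from mESC to mCtx was -2.50 ± 0.18 in chromatin (adjusted p = 7.74e-13), -2.93 ± 0.18 in nucleoplasm (adjusted p = 3.7e-14) and -0.997 ± 0.18 in cytoplasm, just short of the size needed for a call. That value was called under RLE scaling (-1.11) and without mESC cytoplasm library 1 (-1.16) or 3 (-1.005) or mCtx cytoplasm library 2 (-1.12). From mNPC to mCtx its nucleoplasmic value of -6.10 ± 0.20 was the largest fall of any member. Mural cell and fibroblast markers, of which Dcn, Lum and Col1a2 were at 0 in mNPC cytoplasm, summed to 1.29 to 1.79 CPM there. In cytoplasm of mESC and mCtx they summed to 41.5 to 53.8 and 20.8 to 25.7 CPM. Which cells held Notch3 was not tested.

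Among the ligands, Dll1, a Delta-type ligand that activates receptors on neighbouring cells, was low in stem cell cytoplasm, at 2.43, 1.19 and 1.81 CPM. It was at 172, 113 and 128 CPM in mNPC and at 30.1, 31.8 and 32.6 CPM in mCtx. Neurons lay well above stem cells and well below progenitors, with no overlap. The log2 fold change was 6.27 ± 0.32 from mESC to mNPC (adjusted p = 1.28e-15), -2.13 ± 0.25 from mNPC to mCtx (adjusted p = 2.32e-08) and 4.15 ± 0.31 from mESC to mCtx. In chromatin Dll1 reached 811, 736 and 654 CPM in mNPC, from 6.87, 5.18 and 3.98 CPM in mESC.

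Dll3, a divergent Delta-type ligand known to act inside the same cell and to inhibit Notch there, followed Dll1 upward. Its cytoplasmic libraries were at 2.80, 3.90 and 3.26 CPM in mESC, 68.3, 40.5 and 51.6 CPM in mNPC and 9.15, 11.5 and 9.12 CPM in mCtx. Progenitors were again the highest group with no overlap. The log2 fold change was 4.0 ± 0.26 from mESC to mNPC (adjusted p = 1.99e-13) and -2.43 ± 0.23 from mNPC to mCtx (adjusted p = 6.66e-10). Between mESC and mCtx its sign depended on the fraction, at 0.66 ± 0.23 in chromatin, -0.69 ± 0.23 in nucleoplasm and 1.57 ± 0.26 in cytoplasm, of which only the cytoplasmic value was called.

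Jag1, a Serrate-type ligand, did not follow the Delta genes. In cytoplasm it was at 5.82, 5.59 and 7.75 CPM in mESC and at 6.41, 4.30 and 6.04 CPM in mNPC, overlapping ranges with a log2 fold change of -0.19 ± 0.20 and a 95% interval of -0.60 to 0.21. The mCtx libraries, at 11.8, 11.4 and 15.2 CPM, were above every library of both other cell types. The step from mNPC to mCtx was 1.20 ± 0.19 in cytoplasm (adjusted p = 4.14e-06) and -1.11 ± 0.18 in nucleoplasm (adjusted p = 3.99e-06), where libraries went from 46.7, 57.6 and 46.5 CPM to 21.2, 22.8 and 25.8 CPM. In chromatin it was -0.10 ± 0.17, with a 95% interval of -0.45 to 0.26. On log2(TPM + 1) the cytoplasmic step was 0.75 and the nucleoplasmic step -0.59, both under the size needed for a call. On log2(TPM + 0.1) the cytoplasmic call was kept, and the nucleoplasmic step, at -0.66, was again under that size.

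Of the targets, Hes5, a repressor that depends on Notch in neural progenitors, differed most. Stem cells had 39 counts of it over the 3 cytoplasmic libraries, or 0.884, 0.508 and 1.048 CPM. The mNPC libraries held 429, 364 and 431 CPM and the mCtx libraries 24.8, 27.03 and 20.4 CPM. No library of a cell type reached that of another. From mESC to mNPC the log2 fold change was 8.97 ± 0.30 in cytoplasm (adjusted p = 3.16e-19), 9.10 ± 0.32 in nucleoplasm and 9.86 ± 0.34 in chromatin, which are 501, 548 and 928 times. From mNPC to mCtx it was -4.08 ± 0.22 in cytoplasm (adjusted p = 6.33e-15), and mCtx remained 4.89 ± 0.29 above mESC.

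Hey1, a target shared with the vascular system, was at 5.30, 7.34 and 9.03 CPM in mESC cytoplasm, 121, 128 and 109 CPM in mNPC and 23.1, 19.98 and 17.8 CPM in mCtx. Its cell types ranked as those of Hes5, with no overlap. The log2 fold change was 4.03 ± 0.17 from mESC to mNPC (adjusted p = 3.23e-17) and -2.56 ± 0.16 from mNPC to mCtx (adjusted p = 9.96e-14).

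Hes1, a repressor also known from stem cells, did not share the rise of Hes5 and Hey1 in cytoplasm. In cytoplasm it was at 27.8, 15.0 and 16.0 CPM in mESC and at 18.6, 18.1 and 26.1 CPM in mNPC. These ranges overlapped, and the log2 fold change was 0.10 ± 0.21 with a 95% interval of -0.34 to 0.54. In chromatin, by contrast, the 17.1, 16.7 and 18.9 CPM of mNPC were all above the 8.08, 5.87 and 6.08 CPM of mESC, a log2 fold change of 1.40 ± 0.22 (adjusted p = 2.78e-06). Neurons had 5.53, 5.64 and 5.70 CPM in cytoplasm, below every library of the other cell types, at -1.89 ± 0.23 against mNPC and -1.79 ± 0.23 against mESC (adjusted p = 3.8e-08 and 5.33e-08).

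Setting neurons against stem cells, 3 members were called higher and 1 lower in chromatin, where 29.3% and 32.3% of all tested genes were called. In nucleoplasm 3 were higher and 2 lower, against 28.9% and 34.1%. In cytoplasm 7 were higher and 1 lower, against 35.7% and 32.2%. Dll1, Hes5 and Hey1 were called higher in all 3 fractions, and Notch3 was lower by point value in all 3. Notch1 went from 0.86 ± 0.17 in chromatin, not called, to -0.31 in nucleoplasm and 1.51 ± 0.18 in cytoplasm. Of the cytoplasmic calls those of Jag1 (1.01 ± 0.19) and Notch2 (1.12 ± 0.23) were lost under RLE scaling, at 0.89 and 0.99, while Notch1 in chromatin was called at 1.03 without mESC chromatin library 1. Jag1 was also lost without mESC cytoplasm library 1 or 2 or mCtx cytoplasm library 3, at 0.95, 0.87 and 0.86, and Notch2 without mESC cytoplasm library 3, at 0.84.

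**Figure D2:**
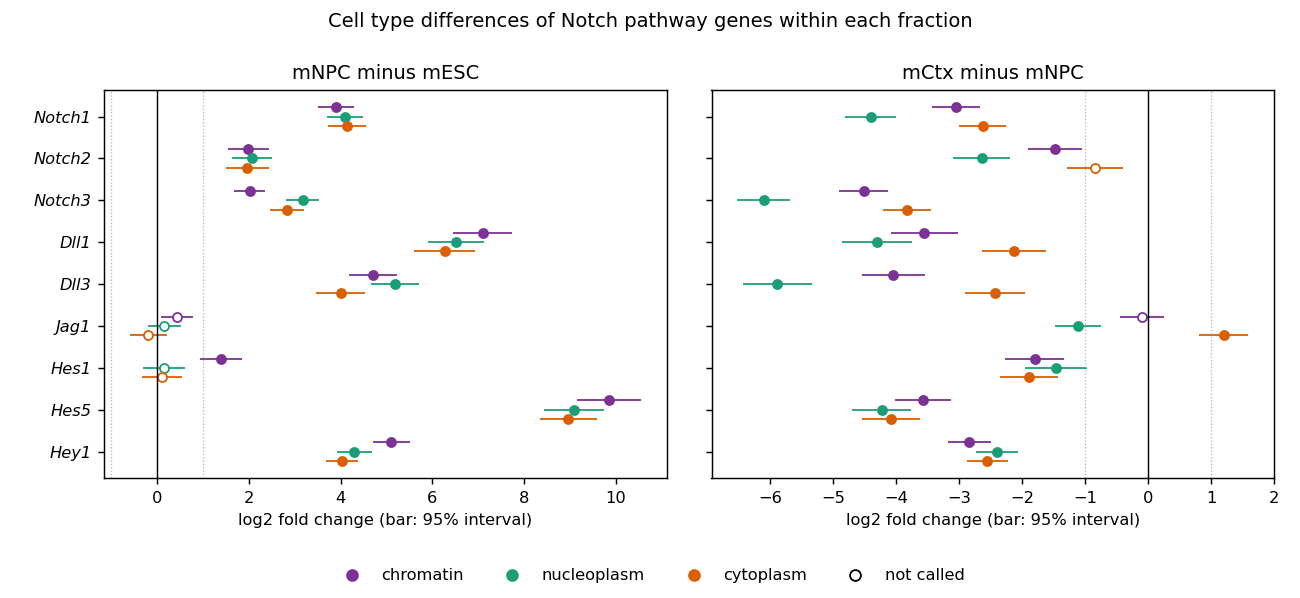
Log2 fold change between cell types for each gene in chromatin, nucleoplasm and cytoplasm; points are fitted values and lines are 95% intervals. From mESC to mNPC all points but those of Jag1 and Hes1 lie at 1.97 or above, and from mNPC to mCtx all points but that of Jag1 in cytoplasm lie below 0. Open points are not called.

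Per unit of transcript length the members can be ranked against each other in TPM. In mNPC cytoplasm Hes5 led at 457 ± 46.9 TPM (SD, n = 3), above every other member in every library. Dll1 followed at 68.2 ± 17.1 TPM and Hey1 at 65.3 ± 7.91 TPM, and these overlapped. Next came Notch1 at 30.6 ± 10.6, Dll3 at 26.5 ± 8.36, Hes1 at 24.2 ± 6.86 and Notch3 at 16.8 ± 3.61 TPM, each overlapping its neighbour in this order. Notch2 at 3.79 ± 1.67 TPM and Jag1 at 1.34 ± 0.301 TPM lay apart below them. In mESC cytoplasm Hes1 stood first at 23.8 ± 9.69 TPM, apart from Hey1 at 3.57 ± 0.785 TPM, and Hes5 came last at 0.810 ± 0.255 TPM. In mCtx cytoplasm the order began again with Hes5 at 28.3 ± 2.59 TPM, then Dll1 at 15.0 ± 1.30 and Hey1 at 11.6 ± 1.01 TPM, each apart from the next, and ended with Notch3 at 1.11 ± 0.0611 TPM. In mNPC chromatin the first places went to Dll1 at 967 ± 67.0 TPM and Notch1 at 708 ± 170 TPM, whose libraries overlapped, with Hes5 apart below them at 494 ± 91.02 TPM.

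Across the 9 group means of log2 CPM the members fell into no single pattern. Notch1 and Dll3 varied most alike with r = 0.972, Hes5 and Hey1 had r = 0.939, and Notch1 and Notch2 had r = 0.932. Jag1 had r = -0.055 with Hes5 and -0.405 with Hes1, and Hes1 had r = -0.0464 with Notch2. These points share fractions, libraries and scaling, so the values are descriptions. Among 12815 genes compared over the same 9 means, the 2 most like Notch1 were Tyro3 (r = 0.9965, and 0.9919 over 27 libraries) and Lrp4 (0.9936 and 0.992). Those most like Hes5 were Sall3 (0.9958 and 0.9907) and Sox8 (0.9954 and 0.9933), and those most like Hey1 were Gstm7 (0.9888 and 0.9809) and Rassf2 (0.9873 and 0.9805). Dll1 was nearest to Lgr5 (0.99 and 0.9779) and Fgfr3 (0.9877 and 0.9797), and Dll3 to Pdgfra (0.9839 and 0.9696) and Pla2g7 (0.9797 and 0.9386). Notch2 was nearest to Npc1 (0.9757 and 0.968) and Aplp2 (0.9727 and 0.9644), and Notch3 to Adamts9 (0.9898 and 0.9832) and Tap2 (0.9864 and 0.9658). Jag1 was nearest to Ktn1 (0.968 and 0.9495) and Slc4a7 (0.9536 and 0.9387), and Hes1 to Ing3 (0.9698 and 0.9078) and E2f8 (0.9684 and 0.8508). With 9 points and many genes such values come high for any gene, and they say nothing of shared control.

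The second comparison asked where in the cell the transcripts were relatively most abundant. In mESC and mNPC all receptors and ligands were called higher in chromatin and in nucleoplasm than in cytoplasm, and in mCtx the receptors were. Of the targets, Hey1 was called lower in chromatin than in cytoplasm in all 3 cell types, Hes5 in mESC and mNPC and Hes1 in mESC, all in counts. The Hes5 call in mESC rests on 13 counts in chromatin and 39 in cytoplasm, and was lost at -0.30 on log2(TPM + 1). Comparing chromatin with cytoplasm, 6 members were called higher and 3 lower in mESC, where 34.4% and 21.6% of all tested genes were called. In mNPC 6 were higher and 2 lower, against 27.5% and 21.3%, and in mCtx 4 were higher and 1 lower, against 26.2% and 24.4%. In mESC and in mNPC the 6 higher members were the 3 receptors and the 3 ligands, and those called lower were among the 3 targets. Each fraction was scaled to its own total, so no value here is an amount per cell.

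**Figure D3:**
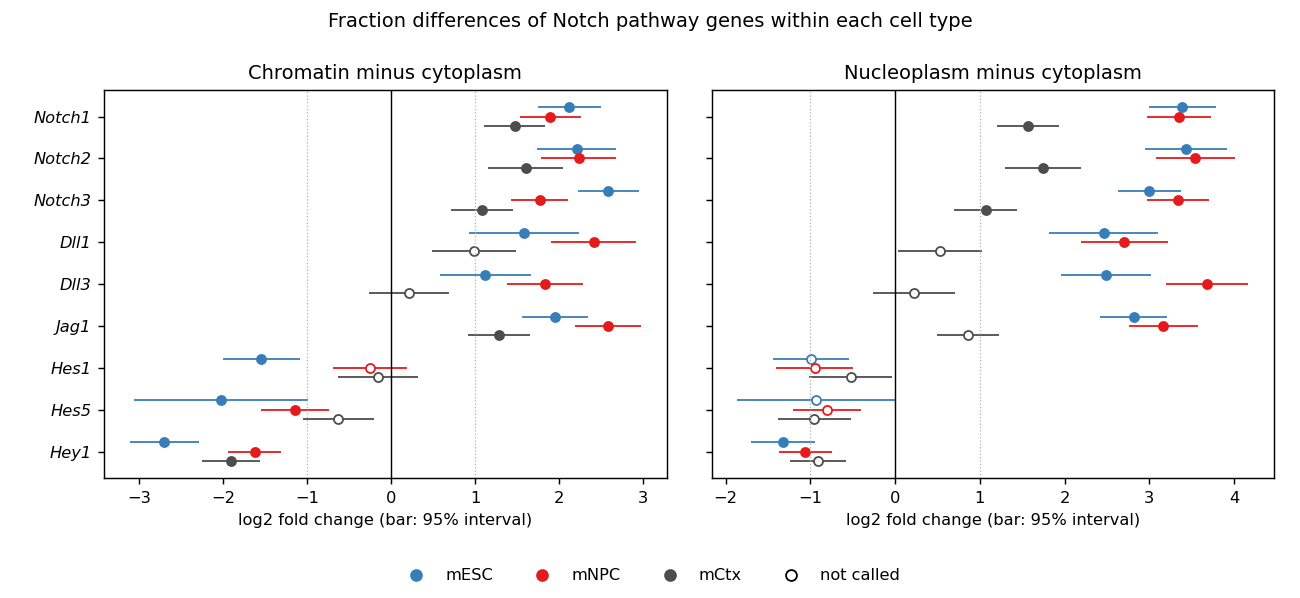
Log2 fold change of chromatin and of nucleoplasm against cytoplasm for each gene in the 3 cell types; points are fitted values and lines are 95% intervals. Receptors lie above 0 in each panel and Hey1 lies below 0 in each panel, and the values of receptors and ligands are nearest to 0 in mCtx.

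For the receptors the nucleoplasm-to-cytoplasm difference was, in counts, the larger of the 2 in stem cells and progenitors. In mESC it was 3.39 ± 0.19 for Notch1, 3.43 ± 0.24 for Notch2 and 3.00 ± 0.18 for Notch3 (log2 fold change ± SE), and in mNPC 3.35 ± 0.19, 3.54 ± 0.23 and 3.34 ± 0.18. In mCtx the values were 1.57 ± 0.18, 1.75 ± 0.22 and 1.07 ± 0.18. All 9 were called, although that of Notch3 in mCtx was lost at 0.98 under library totals, 0.95 without mCtx nucleoplasm library 2 and 0.99 without mCtx cytoplasm library 1. In CPM, mNPC Notch3 stood at 1201, 1309 and 885 in nucleoplasm, 351, 358 and 430 in chromatin and 131, 90.4 and 113 in cytoplasm, without overlap. Notch2 in mNPC was at 425, 363 and 359 CPM in nucleoplasm, 171, 149 and 143 CPM in chromatin and 47.6, 26.0 and 24.3 CPM in cytoplasm. In TPM the log2 ratio to cytoplasm of Notch1 was larger for chromatin, at 4.26 against 3.36 in mESC and 4.53 against 2.95 in mNPC. That of Notch3 in mESC (3.24 against 3.10) and of Notch2 in mNPC (3.28 against 3.22) was too. Notch2 in mESC (2.99 against 3.39) and Notch3 in mNPC (2.68 against 3.05) kept the order of the counts.

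The ligands behaved like the receptors in mESC and mNPC and less so in mCtx. Jag1 in mNPC was at 46.7, 57.6 and 46.5 CPM in nucleoplasm, 33.0, 34.1 and 33.2 CPM in chromatin and 6.41, 4.30 and 6.04 CPM in cytoplasm. Its nuclear libraries were all above its cytoplasmic ones, with log2 fold changes of 3.17 ± 0.20 for nucleoplasm (adjusted p = 4.28e-13) and 2.58 ± 0.19 for chromatin (adjusted p = 4.83e-12). Dll3 in mNPC was at 820.1, 739 and 508 CPM in nucleoplasm, 232, 161 and 177 CPM in chromatin and 68.3, 40.5 and 51.6 CPM in cytoplasm, a nucleoplasm-to-cytoplasm value of 3.69 ± 0.24. In mCtx the 3 fractions of Dll3 overlapped, at 11.5, 12.002 and 11.3 CPM in nucleoplasm, 10.8, 13.7 and 10.1 CPM in chromatin and 9.15, 11.5 and 9.12 CPM in cytoplasm. Dll1 in mCtx was at 64.0, 65.2 and 58.1 CPM in chromatin and 30.1, 31.8 and 32.6 CPM in cytoplasm, apart from each other. Its log2 fold change of 0.99 ± 0.24 missed the size for a call and passed it at 1.25 with library totals. The value was also called with RLE (1.03), with DESeq2 (1.03) and on log2(TPM + 1) (2.13). Of 6 fits that left out a library 2 called it, without mCtx chromatin library 3 (1.04) or mCtx cytoplasm library 3 (1.01). In mESC the chromatin call of Dll3 (1.12 ± 0.26) was lost at 0.86 without mESC chromatin library 2.

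Between nucleoplasm and cytoplasm 6 members were called higher and 1 lower in mESC, against 27.5% and 8.95% of all genes. In mNPC again 6 were higher and 1 lower, against 16.4% and 8.56%, and in mCtx 3 were higher and none lower, against 11.7% and 9.57%. In mCtx 3 members, the targets, were lower at an unadjusted p under 0.05, and DESeq2 called none of them. Hes5 at -0.95 was called there with library totals (-1.04) and without mCtx nucleoplasm library 1 (-1.02) or 2 (-1.14) or mCtx cytoplasm library 3 (-1.06). Hes1 was called lower in mESC without mESC nucleoplasm library 1 (-1.31) or mESC cytoplasm library 2 (-1.26) or 3 (-1.24), and in mNPC without mNPC cytoplasm library 1 (-1.03) or 2 (-1.04). Hes5 was called lower in mESC without mESC nucleoplasm library 3 (-1.30) or mESC cytoplasm library 2 (-1.29), and DESeq2 called both Hes1 (-1.11) and Hes5 (-1.05) lower in mESC. In mNPC both were called lower with library totals (-1.22 and -1.09) and on log2(TPM + 1) (-1.01 and -1.12). The receptors and ligands are membrane or secretory pathway proteins, and another secretory set is given beside them as a description. Of 16 genes for endoplasmic reticulum chaperones and translocation, a list chosen after values were seen and given without a test, 15 were called higher in nucleoplasm in mESC (median 3.36), 13 in mNPC (2.30) and 5 in mCtx, with 3 lower (0.79). Of the 11 tested mitochondrially encoded mRNAs, a list also chosen after values were seen, 10, 11 and 11 were called higher in nucleoplasm, with medians of 6.86, 5.26 and 1.96. Mitochondrial mRNAs are made outside the nucleus. The members had medians of 2.49, 3.17 and 0.53, and both lists likewise had their smallest median in mCtx. From mESC to mNPC, however, the median of the members rose while those of both lists fell. The part of fraction purity in the members' values was not tested.

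Among the targets, Hey1 was at 1.07, 1.06 and 1.21 CPM in mESC chromatin, 2.18, 3.16 and 3.33 CPM in nucleoplasm and 5.30, 7.34 and 9.03 CPM in cytoplasm. In CPM, chromatin, nucleoplasm and cytoplasm were thus ordered without overlap. The same order held in mNPC, at 39.2, 40.3 and 36.3, 57.3, 58.9 and 55.0, and 121, 128 and 109 CPM in turn. In TPM this order was not kept. In mESC, chromatin and nucleoplasm libraries overlapped, with means of 1.41 and 1.56 TPM, below the cytoplasm mean of 3.57 TPM. In mNPC, chromatin (58.9, 67.6 and 63.9 TPM) was above nucleoplasm (24.6, 28.7 and 26.6 TPM) and overlapped cytoplasm (69.7, 70.04 and 56.2 TPM). In counts, the chromatin-to-cytoplasm log2 fold change of Hey1 was -2.70 ± 0.20 in mESC, -1.63 ± 0.15 in mNPC and -1.91 ± 0.17 in mCtx (edgeR adjusted p = 5.9e-12, 4.06e-10 and 1.01e-10). Its nucleoplasm-to-cytoplasm call in mNPC (-1.06 ± 0.15) was lost under RLE scaling at -0.92, and without mNPC nucleoplasm library 1, 2 or 3 at -0.93, -0.95 and -0.87. Hes5 in mNPC was at 202, 209 and 144 CPM in chromatin and 276, 254 and 168 CPM in nucleoplasm, below its 429, 364 and 431 CPM in cytoplasm. The chromatin-to-cytoplasm value of -1.14 ± 0.20 (adjusted p = 1.12e-05) was lost at -0.82 with library totals and at -0.99 without mNPC chromatin library 3. Hes1 was called lower in chromatin only in mESC, at -1.55 ± 0.22 (adjusted p = 6.85e-07), which became -0.04 on log2(TPM + 1), while in mNPC it was -0.25 ± 0.21 with a 95% interval of -0.69 to 0.19.

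The unit mattered for these fraction values. TPM was assigned to transcripts, whereas the counts cover the whole gene span with introns. For every member in every cell type the chromatin-to-cytoplasm log2 ratio was larger in TPM than in counts, by 0.541 to 2.139 in mESC, 0.653 to 2.631 in mNPC and 0.81 to 1.714 in mCtx. The nucleoplasm-to-cytoplasm ratios differed by -0.33 to 0.205, -0.54 to -0.144 and -0.194 to 0.126. On log2(TPM + 1) the chromatin-to-cytoplasm values of the targets moved too. In mNPC Hes1 was 1.36 in place of -0.25, Hes5 0.10 in place of -1.14, and Hey1 -0.04 in place of -1.63. Hey1 was -0.92 in mESC and -0.81 in mCtx, below 0 in both units. For receptors and ligands chromatin was above cytoplasm by point value in both units in all 3 cell types. Why the units differed was not tested.

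**Figure D4:**
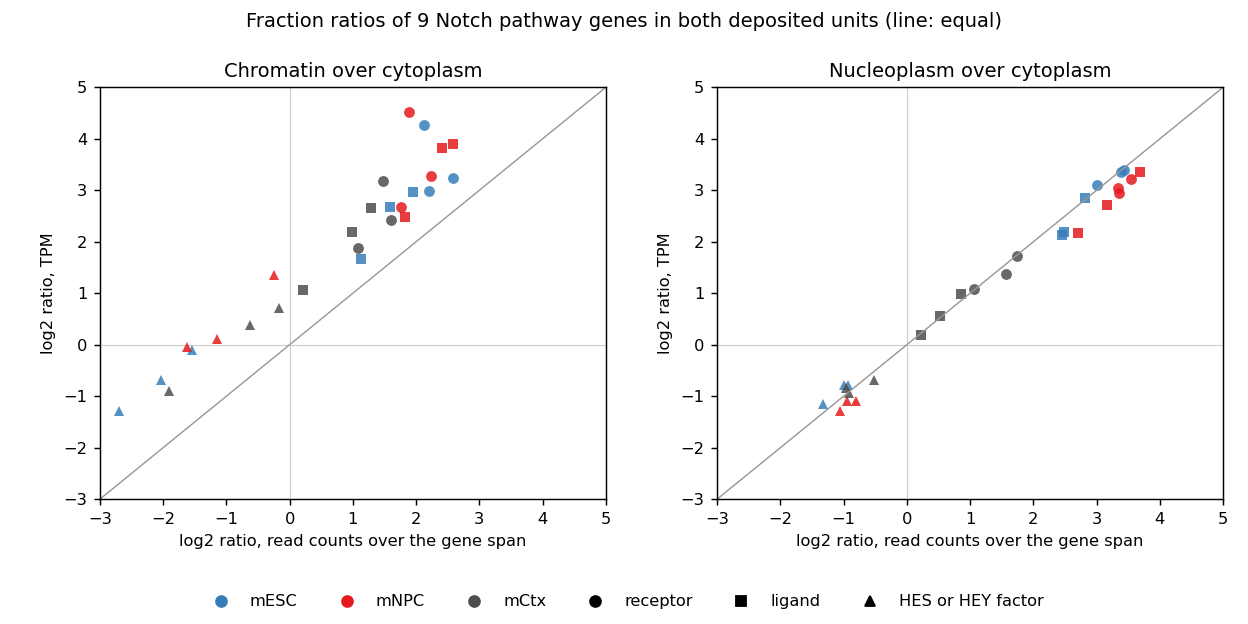
Chromatin-to-cytoplasm and nucleoplasm-to-cytoplasm log2 ratios of the 9 genes from TPM (vertical axis) against those from counts (horizontal axis); the diagonal marks equal values. Chromatin points lie above the diagonal by 0.541 to 2.631, and nucleoplasm points lie between 0.54 below it and 0.205 above it.

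Chromatin and nucleoplasm could be ordered for no member in a way that held in both units and all cell types. In counts 4 members were called lower in chromatin than in nucleoplasm in mESC (Notch1, Notch2, Dll3 and Hey1) and 4 in mNPC (Notch1, Notch2, Notch3 and Dll3), against 17.4% and 21.7% of all genes, and none in mCtx. None was called higher in any cell type by edgeR or DESeq2, against 16.0%, 22.7% and 17.4% of all genes, and Hes1 in mNPC and Jag1 in mCtx were higher at an unadjusted p under 0.05. In mCtx, where 16.1% of all genes were lower, Hey1 at -0.999 ± 0.17 was the only member lower at an unadjusted p under 0.05. It was called without mCtx chromatin library 3 (-1.12) or mCtx nucleoplasm library 3 (-1.11). Notch1 in mESC had -1.26 ± 0.17 in counts and 0.84 on log2(TPM + 1), and in mNPC -1.45 ± 0.17 and 1.55. On that scale none of the 9 members was called in mESC, 6 were called higher in chromatin in mNPC and 5 in mCtx. With library totals the calls of Notch1 and Notch2 in mESC and of Notch1, Notch2 and Notch3 in mNPC were lost, at -0.96, -0.92, -0.86, -0.71 and -0.98, and that of Notch2 in mESC also without mESC nucleoplasm library 1, at -0.94. Hes1 in mNPC was then called higher in chromatin, at 1.29 with library totals.

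Scaling also moved the balance of all genes between fractions. Of the called genes, 61.4% were higher in chromatin than in cytoplasm in mESC and 56.4% in mNPC, against 76.5% and 66.5% with library totals alone. For nucleoplasm against cytoplasm it was 75.5% and 90.8% in mESC, and in mNPC 65.7% against 42.2% with library totals and 76.8% with RLE. For chromatin against nucleoplasm it was 48.0% and 66.7% in mESC, 51.1% and 73.2% in mNPC and 52.0% and 73.5% in mCtx. For the shift from mESC to mNPC, 36.8% of called genes moved toward chromatin, against 24.8% with library totals, and for nucleoplasm against cytoplasm in mNPC DESeq2 gave 77.1%.

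Members with long exonic sequence had the higher chromatin-to-cytoplasm values. Spearman's rho between exonic bases and the log2 fold change over the 9 members was 0.833 in mESC, 0.567 in mNPC and 0.867 in mCtx, against 0.103, 0.156 and 0.187 over 17892 genes. These are descriptions across genes, which are not independent replicates, and receptors, ligands and targets differ in length by role.

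The third comparison asked whether the chromatin-to-cytoplasm difference itself changed between cell types, by an interaction term. From mESC to mNPC 2 members were called with a shift toward chromatin and none toward cytoplasm, against 10.3% and 17.7% of all genes. At an unadjusted p under 0.05 Notch3 was the 1 member shifted toward cytoplasm, at -0.82 ± 0.24, and it was called at -1.06 without mESC cytoplasm library 2. DESeq2 called none in that direction. The 2 called members were Hes1 with 1.30 ± 0.31 (adjusted p = 0.0012) and Hey1 with 1.07 ± 0.25 (adjusted p = 0.00119). The Hes1 call was lost at 0.98 without the 3 mESC libraries numbered 1 and at 0.80 without mESC cytoplasm library 1 alone, in which Hes1 stood at 27.8 CPM beside 15.0 and 16.0. The Hey1 call was lost at 0.95 and 0.79 without mESC cytoplasm library 2 or 3 at 0.86 with library totals, at 0.995 with no filter, at 0.96 with at least 1 CPM, at 0.95 with only the libraries compared and at 0.88 on log2(TPM + 1).

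From mNPC to mCtx no member shifted toward chromatin and 3 toward cytoplasm, against 7.68% and 11.4% of all genes. None shifted toward chromatin at an unadjusted p under 0.05 or by DESeq2. The 3 called members were the ligands. Dll1 shifted by -1.43 ± 0.34 (adjusted p = 0.00179), Dll3 by -1.61 ± 0.32 (adjusted p = 0.000308) and Jag1 by -1.30 ± 0.26 (adjusted p = 0.000351), so that relatively more of each ligand was found in cytoplasm in neurons than in progenitors. Each of these calls held without any single library. That of Jag1 was lost on log2(TPM + 1), at -0.92, and kept on log2(TPM + 0.1). The 13 mitochondrially encoded mRNAs listed summed to 2803 to 6134 CPM in chromatin and 3092 to 5038 CPM in cytoplasm in mNPC. In mCtx they summed to 11220 to 13520 CPM in chromatin and 26190 to 26710 CPM in cytoplasm. The part of fraction purity in the ligand shifts was not tested. The receptors had -0.42 ± 0.24, -0.63 ± 0.30 and -0.69 ± 0.24 for Notch1, Notch2 and Notch3, none of them called. Notch2 was called at -1.01 without mNPC cytoplasm library 1, and on log2(TPM + 1) they had -1.52, -1.02 and -1.27, all called.

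From mESC to mCtx 2 members shifted toward chromatin and 1 toward cytoplasm, against 15.7% and 24.9% of all genes. Hes1 had 1.39 ± 0.32 (adjusted p = 0.000634), Hes5 1.40 ± 0.55 (adjusted p = 0.0336) and Notch3 -1.51 ± 0.25 (adjusted p = 1.1e-05). The Hes5 value rests on 13 and 39 counts in mESC chromatin and cytoplasm, and its call was lost without mESC chromatin library 1 (1.12) or 3 (1.36), mESC cytoplasm library 1 (1.26) or 3 (1.14), mCtx chromatin library 2 (1.23) or mCtx cytoplasm library 3 (1.30), and with library totals (1.15). The Hes1 call was lost without mESC cytoplasm library 1, at 0.97. Dll3, at -0.91 ± 0.35 not called, was called without mESC chromatin library 1, mESC cytoplasm library 2 or mCtx chromatin library 2, at -1.11, -1.07 and -1.04. With log2(TPM + 1) Hes1 had 0.67 and Hes5 0.66, and neither was called.

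Beyond the 9 members, 54 other pathway genes were listed by role, of which 52 were tested. In cytoplasm 26 of them were called higher and 11 lower in mNPC than in mESC, with a median log2 fold change of 1.04, where 29.8% and 29.6% of all tested genes were called. In mCtx against mNPC 15 were higher and 12 lower in cytoplasm, with a median of -0.03 (-0.06 with genes at or near 0 counts at their bound), where 24.4% and 20% of all genes were, so the list lay near the background there. In nucleoplasm 13 were higher and 20 lower at that step, with a median of -0.43, against 24.6% and 22.1% of all genes. In the role groups that follow, counts are for cytoplasm unless another fraction is named. The shares of all genes are those just given unless others are printed.

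Among other receptors and ligands 2 of 6 were higher and 3 lower in mNPC than in mESC, and 5 were higher in mCtx than in mNPC. Dner, a neuronal transmembrane ligand, rose at both steps, from 1.65 ± 0.782 CPM in mESC to 74.4 ± 10.96 CPM in mNPC and 445 ± 31.1 CPM in mCtx (SD, n = 3). Jag2, a Serrate-type ligand like Jag1, fell from 26.96 ± 2.02 to 0.480 ± 0.174 CPM and rose again to 35.6 ± 4.52 CPM, with log2 fold changes of -5.72 ± 0.24 and 6.12 ± 0.24. Dlk2, an atypical Delta-like protein, had 0.111 ± 0.0495 CPM in mNPC and 36.7 ± 3.34 CPM in mCtx, a log2 fold change of 8.30 ± 0.33.

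Most genes for receptor cleavage rose at the first step in cytoplasm. Of 10, 9 were higher in mNPC than in mESC and none lower, with a median of 1.90, and 1 was higher and 1 lower in mCtx than in mNPC. In nucleoplasm 8 were higher at the first step, where 24.5% of all tested genes were. At the second step 8 were lower there and none higher, with a median of -1.50. In chromatin 5 were higher at the first step, against 25.3% of all genes. At the second step 1 was higher and 1 lower in chromatin, against 23.5% and 21.4%. Adam10, the protease that sheds the receptor's outer part, was at 6.57 ± 0.968 CPM in mESC, 79.8 ± 5.57 CPM in mNPC and 111 ± 18.8 CPM in mCtx, with log2 fold changes of 3.61 ± 0.21, called, and 0.48 ± 0.18, not called. Ncstn, a gamma-secretase subunit, was at 10.1 ± 1.499, 78.8 ± 12.5 and 63.0 ± 5.16 CPM, with 2.95 ± 0.16, called, and -0.32 ± 0.15, not called. Aph1b, another gamma-secretase subunit whose close copy Aph1c may share its reads, had the largest first step of the group at 7.85 ± 0.31, and Psen2, a presenilin, had 0.998 ± 0.34 at the first step, not called, and 1.74 ± 0.31 at the second.

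Of 5 glycosylation genes 3 were higher in mNPC than in mESC, and 1 was higher and 2 lower in mCtx than in mNPC. In nucleoplasm 4 were lower and 1 higher at that second step, with a median of -1.73. Lfng, the Fringe enzyme that modifies Notch receptors, had log2 fold changes of 6.04 ± 0.21 and -2.54 ± 0.17, at 2.74 ± 0.391, 181 ± 41.3 and 31.0 ± 2.30 CPM in turn. Poglut1, which adds glucose to the receptors, had 0.92 ± 0.12 and 0.28 ± 0.12, neither called.

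Of 13 genes for endocytosis, ubiquitin ligases and inhibitors 5 were higher and 2 lower at the first step, and 4 higher and 2 lower at the second. Nrarp, a Notch target that feeds back on the pathway, had log2 fold changes of 4.70 ± 0.19 and -2.99 ± 0.17, at 7.28 ± 0.863, 189 ± 24.0 and 23.9 ± 2.28 CPM. Its direction at both steps was that of Hes5 and Hey1. Dtx4 and Dtx3, of the Deltex family, were called higher at the first step with 3.75 ± 0.21 and 1.29 ± 0.16 and not called at the second with 0.73 ± 0.18 and 0.79 ± 0.16.

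Of 8 genes for the nuclear complex and corepressors 1 was higher and 2 lower at the first step, and 1 higher and 4 lower at the second. The gene called higher at the first step was Maml2, a Mastermind coactivator, with 4.93 ± 0.19, which then fell by 3.17. Maml3 of the same family had -1.09 ± 0.56, not called, and then rose by 4.76 ± 0.45, reaching 7.26 ± 1.23 CPM. The corepressor Spen was not called at the first step, with -0.23 ± 0.19.

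Of 6 other HES and HEY factors 3 were higher and 3 lower at the first step, and 1 was higher and 2 lower at the second. Heyl, a close relative of Hey1, had log2 fold changes of 6.18 ± 0.42 and -3.21 ± 0.31. Hes6, known to oppose Hes1, had 3.44 ± 0.15 and then -0.69 ± 0.13, the latter not called. In 3 libraries each, Hes2 had 136 counts in mESC cytoplasm and 0 in mNPC, at least 52.1-fold lower by a floor of 3 counts over the group. Hes3 had 16 counts in mNPC cytoplasm and 0 in mCtx, at least 5.44-fold lower.

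Of 6 proneural factors 4 were tested, and at the first step 3 were higher and 1 lower. At the second step 2 were higher and 1 lower. Neurod1, a later neuronal factor, fell at the first step and rose at the second, with log2 fold changes of -5.31 ± 0.37 and 6.93 ± 0.36.

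**Figure D5:**
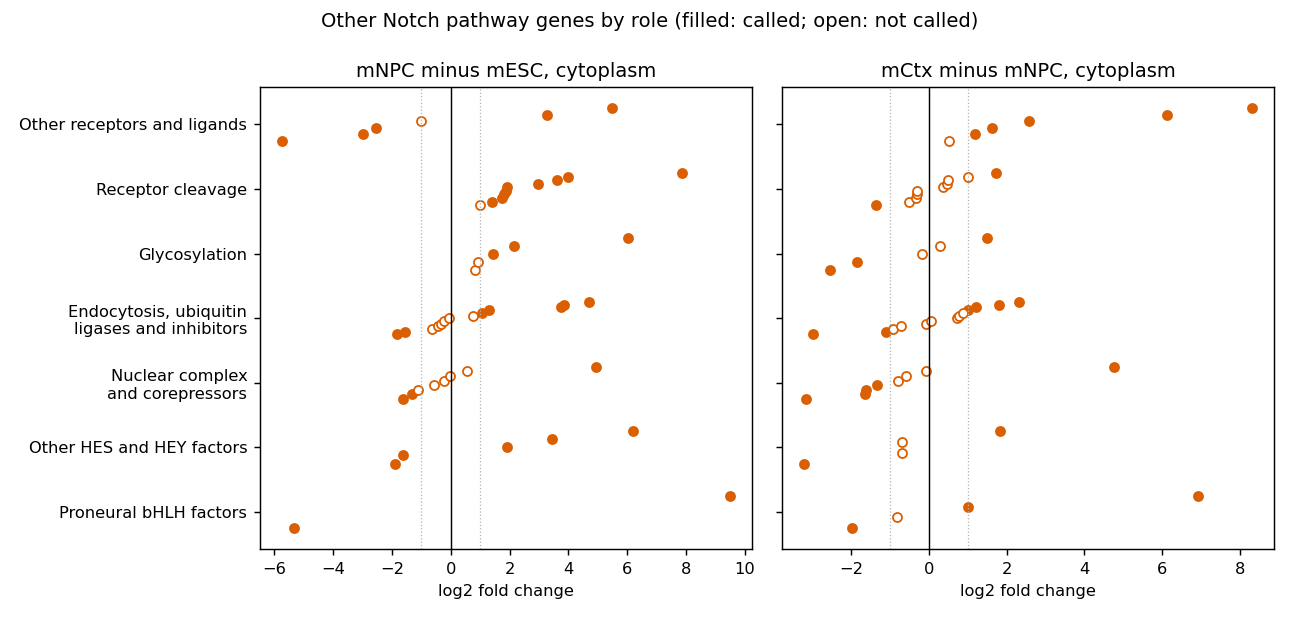
Log2 fold change in cytoplasm of the other pathway genes by role, from mESC to mNPC (left) and from mNPC to mCtx (right); each point is a gene, filled if called and open if not, and genes with 3 or fewer counts in a group are left out. In the left panel 9 of 10 receptor cleavage genes are filled and above 0, and in the right panel 5 of 6 receptors and ligands are.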

How the data were processed

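Polyadenylated RNA of 9 groups (3 cell types, 3 fractions, 3 biological replicates each) was measured. The deposited values are read counts per gene, which by the file headers cover each gene's whole span with introns, and TPM per gene. The submitters' processing notes name mm10 as build and kallisto 0.43.0, STAR and featureCounts as tools. The chromatin columns, like those of the other fractions, hold whole-number read counts as deposited and were analysed as counts. Counting options, strand setting and annotation release of the authors: not given in the sources used here. Symbols were matched for 35449 of 37332 count-table and 53274 of 53379 TPM-table genes.

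Counts of all 27 libraries were fitted together with edgeR 4.0.16 (R 4.3.3, TMM scaling, filterByExpr, quasi-likelihood test), and p-values were adjusted by Benjamini-Hochberg over the 18226 tested genes in each of 21 contrasts. A shift is the chromatin-to-cytoplasm difference of one cell type minus that of another. The printed CPM are counts scaled to the TMM library size. The fit was tested on simulated data. Library totals limit precision for Hes5 in mESC, with 13 to 39 counts in a fraction. The p-values measure the spread between the replicates, and the labels do not say whether fractions with the same number share a culture. Same-numbered fractions deviated together in 20 of 27 pairs (r over 0.1, range -0.38 to 0.818), every pair among mESC fractions included.

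Alternatives were RLE, library totals alone, other filters, DESeq2 1.42.0, a replicate block, no minimum fold change, limma 3.58.1 on log2(TPM + 1) and log2(TPM + 0.1), only the compared libraries, and leaving out libraries. Named genes are all members, the 2 of highest mean CPM in each role group, the gene with the largest called change at each step in cytoplasm, and the 2 genes most like each member among those whose mean reached 10 CPM in some group. The members and lists were chosen with earlier results of these data known. Some genes that this rule names are not reported here.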

Additional observations from a re-analysis of the deposited data

Results flagged for a closer look

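For 8 values the test of the difference between cell types itself, an interaction term in edgeR with Benjamini-Hochberg adjustment over all genes, passed the threshold for a changed chromatin-to-cytoplasm difference. The log2 shift was 1.30 for Hes1 and 1.07 for Hey1 from mESC to mNPC. From mNPC to mCtx it was -1.43 for Dll1, -1.61 for Dll3 and -1.30 for Jag1. From mESC to mCtx it was -1.51 for Notch3, 1.39 for Hes1 and 1.40 for Hes5. The values of Hes1 (1.30 and 1.39) both use the mESC cytoplasm libraries, of which library 1 had 27.8 CPM beside 15.0 and 16.0 CPM, and both fell under 1 without it (0.80 and 0.97). The same 3 libraries enter both comparisons, so the values are not independent. Hes5 (1.40), which rests on 13 and 39 counts in mESC chromatin and cytoplasm, lost its call in 6 of 12 fits that left out a library, with library totals (1.15) and on log2(TPM + 1) (0.66). Hey1 (1.07) lost it in 2 of 12, at 0.95 and 0.79, with library totals (0.86) and on log2(TPM + 1) (0.88), where Hes1 from mESC to mCtx (0.67) and Jag1 (-0.92) lost theirs too.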

How the results depend on the processing

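Of 3472 values of single members recomputed under the alternatives, 3186 kept their side of the threshold, 101 lost a call, 126 gained one and 59 reversed. Of the 3186, 52 changed sign with an adjusted p not under 0.05 in either fit. The cause was not tested. The replicate block changed no call, with 8 members called from mESC to mNPC in chromatin as without it; other fraction pairs than those of mESC did not all exceed 0.1, and across cell types same-numbered libraries correlated at -0.39 to 0.198.

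Reversals were mostly between counts and TPM, given as counts, then log2(TPM + 1) with or without the filter, then log2(TPM + 0.1). For chromatin minus nucleoplasm in mESC they were Notch1 -1.26, 0.84 and 0.87, Notch3 -0.42, 0.11 and 0.12, Dll1 -0.88, 0.46 and 0.55, Jag1 -0.86, 0.10 and 0.10, and Hes1 -0.55, 0.69 and 0.73. In mNPC they were Notch1 -1.45, 1.55 and 1.55, Notch2 -1.31, 0.054 and 0.056, Dll1 -0.29, 1.66 and 1.66, Jag1 -0.59, 1.11 and 1.18, Hes5 -0.33, 1.22 and 1.22, and Hey1 -0.56, 1.22 and 1.25. With library totals Jag1 was 0.0045 and Hey1 0.028 there. In mCtx they were Notch1 -0.10, 1.72 and 1.78, Notch2 -0.15, 0.64 and 0.70, Dll3 -0.01, 0.81 and 0.89, and Hey1 -0.999, 0.031 and 0.035. For chromatin minus cytoplasm they were Hes1 -0.25, 1.36 and 1.39 and Hes5 -1.14, 0.10 and 0.10 in mNPC, and Hes1 -0.16, 0.64 and 0.69 and Hes5 -0.63, 0.37 and 0.38 in mCtx.

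Of the counts of called members, those from mESC to mCtx went from 4 to 7 in chromatin and 5 to 8 in nucleoplasm with no minimum fold change. Chromatin against nucleoplasm in mESC went from 4 to 2 with library totals, 8 with no minimum and 0 in the 3 TPM settings. In mNPC it went from 4 to 2 with library totals and 7 with no minimum. In mCtx it went from 0 to 1 with no filter, with at least 1 CPM or with only the libraries compared, to 2 with no minimum, to 5 in the 3 TPM settings and 0 to 1 when leaving out libraries. Nucleoplasm against cytoplasm in mCtx went from 3 to 6 with no minimum and 2 to 5 when leaving out libraries. The shift from mESC to mNPC went from 2 to 1 with no filter, at least 1 CPM, only the libraries compared or without the mESC libraries numbered 1, and 1 to 2 when leaving out libraries. The shift from mNPC to mCtx went from 3 to 5 on log2(TPM + 1) with or without the filter, and that from mESC to mCtx from 3 to 7 with no minimum, 1 on log2(TPM + 1) with or without the filter and 1 to 4 when leaving out libraries.

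Library totals alone moved the median log2 fold change of all genes for chromatin against cytoplasm from 0.37 to 0.88 in mESC and 0.12 to 0.43 in mNPC, and for chromatin against nucleoplasm from 0.05 to 0.65 in mNPC. Counts of all called genes moved by over 1.5 times in these cases. With no minimum fold change, nucleoplasm against cytoplasm went from 6652 to 11521 in mESC, 4553 to 8966 in mNPC and 3878 to 8523 in mCtx, chromatin against nucleoplasm from 6083 to 10482 in mESC and 6095 to 10526 in mCtx, and the shift from mNPC to mCtx from 3472 to 5830. On log2(TPM + 1), log2(TPM + 0.1) and log2(TPM + 1) without a filter, chromatin against nucleoplasm had 9207, 11590 and 9274 in mESC and 12182, 14817 and 12209 in place of 8095 in mNPC, and the shift from mNPC to mCtx had 5417, 5592 and 5357. On log2(TPM + 0.1) alone, chromatin against nucleoplasm in mCtx had 11442 and chromatin against cytoplasm in mNPC 14714 in place of 8904.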
